A study of Mus musculus with 6 samples.

Results

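The direct contrast of Glis3 knockdown with CD133 knockdown sets 2 libraries of colonies carrying shRNAs against Glis3 beside 2 libraries of colonies carrying shRNAs against CD133, which is 4 of the 6 libraries in the series. The 4 libraries were chosen by their labels, not by any measured value. The difference given for a gene is the Glis3 shRNA mean minus the CD133 shRNA mean on the log2(RPKM + 1) scale, so it contains no control value. Of 11164 genes in the deposited table, 10829 reached a mean of at least 1 RPKM (a read count divided by transcript length and by library total) over the 6 libraries and were tested. A positive difference is a higher level in Glis3 shRNA colonies.

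All 6 libraries are poly(A) RNA from primary colonies of C57Bl/6 mice aged 2 to 4 months. Pancreas was dissociated, cells with high CD133 and low CD71 on their surface were sorted, and the cells were infected overnight with lentivirus, put under puromycin and grown in a methylcellulose and Matrigel medium with RSPO1 for 3 weeks. The Glis3 shRNA and the CD133 shRNA groups each received a pool of 5 shRNA clones, whereas the control group received 1 shRNA without a mammalian target. The contrast of the knockdowns therefore compares pools of equal size, which a comparison with control does not. The sort used CD133 itself, so the cells that received the CD133 shRNAs had been selected for their high surface level of the target. The titles number the libraries 1 and 3 in every group and do not say whether these are separate animals or cultures. The p-values then measure only the spread between these libraries, which may be technical.

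GLIS3 is a zinc-finger transcription factor related to the GLI factors of Hedgehog signalling. In the pancreas it is known for its part in endocrine differentiation, in insulin gene transcription and in the ducts, whose primary cilia it associates with. CD133, the product of Prom1, is a membrane glycoprotein of microvilli and other plasma membrane protrusions and is widely used to sort progenitor cells, while WNT ligands are secreted lipoproteins that act through Frizzled receptors and stabilize beta-catenin. The title of the series places Glis3, CD133 and Wnt signalling on 1 axis of self-renewal, and the contrast asks where the RNA of the knockdowns parts ways.

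The libraries were alike in depth and in kind. RPKM values summed to between 267688 and 279122 a library, the 10 most abundant genes held 7.65% to 9.49% of that sum, and the steps between low values placed the depth of the 4 knockdown libraries between 25.7 and 28.5 megareads. Duct genes were abundant in both knockdowns. Spp1, a secreted duct glycoprotein, was at 5212 and 4168 RPKM with Glis3 shRNA and at 3127 and 4202 with CD133 shRNA, and Clu, encoding clusterin, lay between 4643 and 6274 RPKM in the 4 libraries. Of the markers of other cells, 3 of 32 acinar, 3 of 24 mesenchymal, 2 of 14 endothelial, 2 of 23 immune and 1 of 8 erythroid genes were in the table. Larger shares were there of other lists: 14 of 36 endocrine, 11 of 28 gastric and mucous and 6 of 13 Schwann and neural genes. In bulk RNA, fewer cells of a type and less RNA per cell cannot be told apart.

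Both targets were lowered in the libraries of their own shRNA pool. Glis3 (chr19:28258851-28680077, minus strand, GRCm38) stood at 13.3 and 11.96 RPKM in the Glis3 shRNA libraries and at 24.8 and 24.2 RPKM in the CD133 shRNA libraries. The control libraries were at 26.1 and 24.2 RPKM, so the low values were those of the Glis3 shRNA pair. The means were 12.6 ± 0.955 and 24.5 ± 0.396 RPKM (SD, n = 2 each), a log2 difference of -0.90 (95% interval -1.07 to -0.74, limma adjusted p = 0.00522). The Glis3 level with its own shRNA pool was thus 51.6% of that in CD133 shRNA colonies, a partial knockdown.

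Prom1 (chr5:43993620-44102032, minus strand) stood at 221 and 202 RPKM in the Glis3 shRNA libraries and at 88.0 and 96.0 RPKM in the CD133 shRNA libraries. The control libraries, at 191 and 203 RPKM, lay near the Glis3 shRNA pair and far from the CD133 shRNA pair. The means were 211 ± 13.7 and 92.0 ± 5.64 RPKM (SD, n = 2 each), a log2 difference of 1.19 (95% interval 1.01 to 1.37, limma adjusted p = 0.0041). Both target calls held in every one of the 15 alternative settings tried, which are not independent checks. Exons of Prom1 overlap those of a predicted gene on the opposite strand, and the use of strand in counting is not given in the sources used here.

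**Figure D1:**
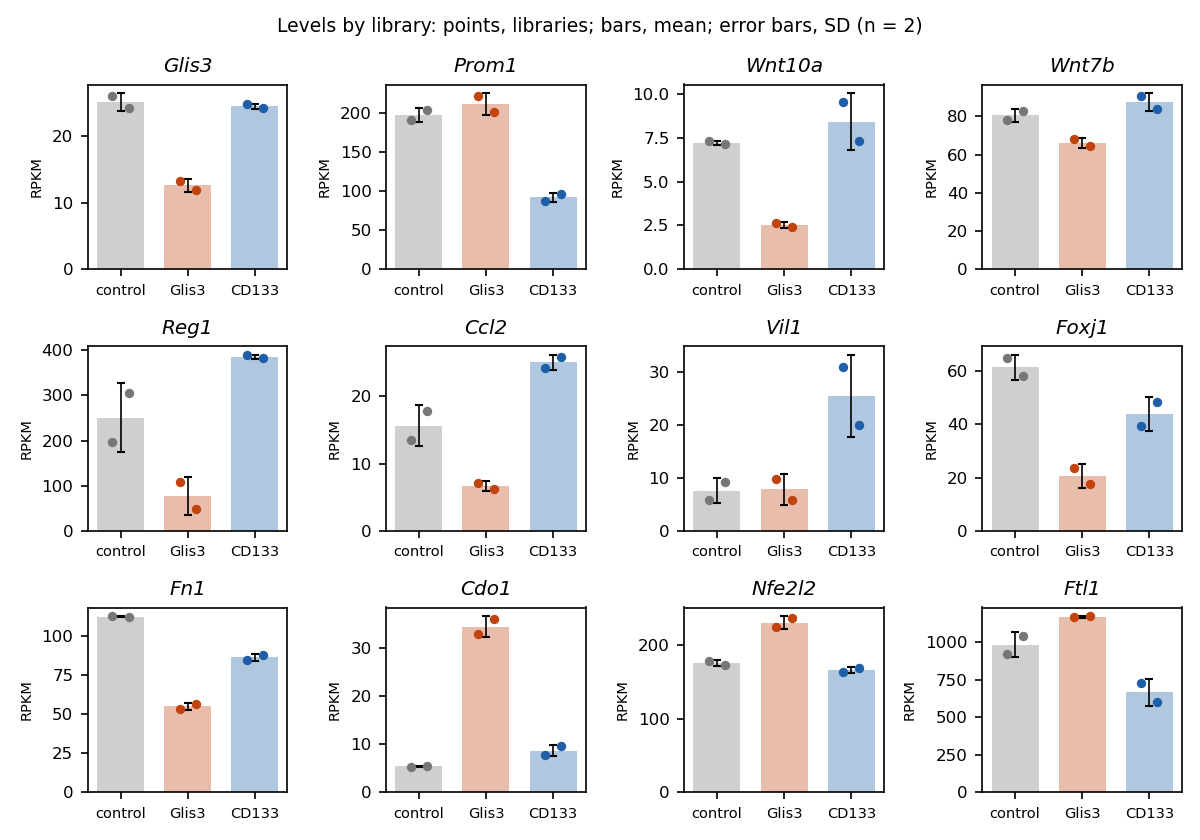
Levels of single genes in RPKM by library for control, Glis3 shRNA and CD133 shRNA colonies; points are libraries, bars the mean and error bars the SD (n = 2), each axis starting at 0. Glis3 is low only in the Glis3 shRNA pair (13.3 and 11.96 RPKM) and Prom1 only in the CD133 shRNA pair (88.0 and 96.0 RPKM).

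The knockdowns differed at 440 of 10829 genes, 4.06% of those tested. Of these, 174 genes (1.61%) were higher and 266 (2.46%) lower in Glis3 shRNA than in CD133 shRNA colonies at a limma adjusted p under 0.05. Most differences were small: the median size among called genes was 0.50 on the log2 scale, 222 lay under 0.5, and 43 reached 1, of which 16 were higher and 27 lower. In all 440 called genes the 2 Glis3 shRNA libraries did not overlap the 2 CD133 shRNA libraries, but the same was true of 54.7% of all genes tested, so a gap between the pairs is no distinction in this design. The median difference of all tested genes was 0.002, on values already divided by library total, so it is no measure of total RNA. The log2 values of all tested genes correlated with Pearson's r = 0.992 within the Glis3 shRNA pair, 0.995 within the CD133 shRNA pair and 0.983 to 0.990 between libraries of different knockdowns, where genes are not independent replicates.

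**Figure D2:**
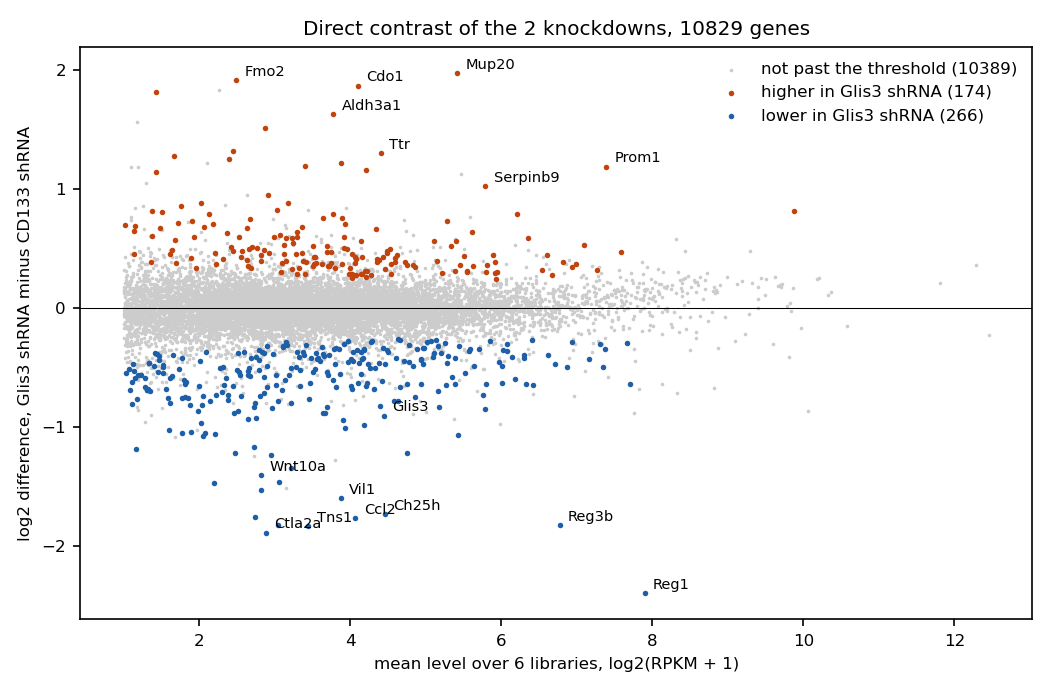
Each point is 1 of 10829 genes, with its mean level over the 6 libraries on the horizontal axis, as log2(RPKM + 1), and its log2 difference, Glis3 shRNA minus CD133 shRNA, on the vertical axis. Most of the 440 called genes, coloured by direction, lie within 1 log2 unit of 0, and 43 lie at or beyond it.

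How many genes were called depended on single libraries and on the controls. The controls enter through the estimate of the spread and through the filter on the mean RPKM over the 6 libraries. That filter was kept in the fits on fewer libraries. Fitted on the 4 knockdown libraries alone, the contrast called 58 genes (0.536%), of which 55 were among the 440. Without control library 1 it called 56 genes and without control library 3 it called 58. It called 743 without Glis3 shRNA library 1, 110 without Glis3 shRNA library 3, 25 without CD133 shRNA library 1 and 98 without CD133 shRNA library 3. Of the 120 genes that the naming rule chose, 97 passed, and 14 of those passed in every setting that could be fitted, among them Glis3, Prom1, Mup20, Cdo1, Ttr, Serpinb9, Rhoj, Tns1, Ccl2, Gxylt2, Wnt10a, Otop3 and Ush1g. The direction of no named gene reversed, and leaving out 1 library moved none of the 97 differences by more than 1.5 times.

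**Figure D3:**
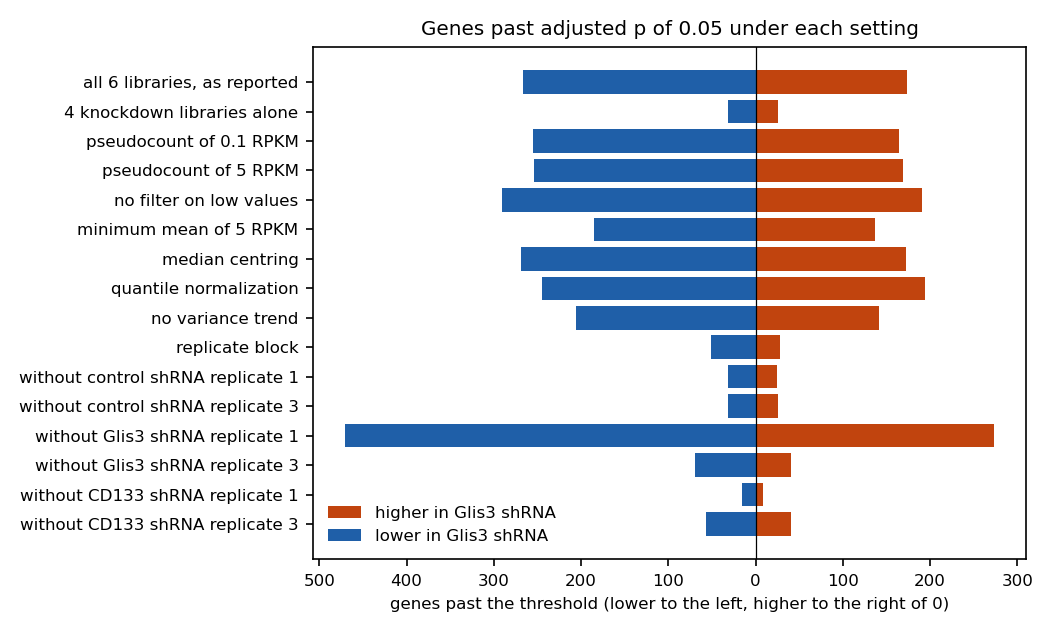
Number of genes past the threshold in each setting, with genes higher in Glis3 shRNA to the right of 0 and genes lower in Glis3 shRNA to the left. The count is 440 with all 6 libraries, 58 with the 4 knockdown libraries alone and 743 without Glis3 shRNA library 1.

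The 20 named genes with the largest positive differences ran from Mup20 at 1.98 to Rhoj at 0.83 and included Prom1. Cdo1, cysteine dioxygenase, which starts the breakdown of cysteine to taurine and sulfate, was at 32.9 and 36.0 RPKM with Glis3 shRNA and at 7.86 and 9.57 RPKM with CD133 shRNA. Control libraries held 5.33 and 5.55 RPKM, so Glis3 shRNA was the high group here. The log2 difference was 1.87 (SE 0.0931, adjusted p = 0.00338). Mup20, a major urinary protein of the lipocalin family, was at 76.2 and 54.1 RPKM with Glis3 shRNA against 16.6 and 14.6 RPKM with CD133 shRNA, a difference of 1.98 (SE 0.15, adjusted p = 0.00522). Control libraries at 45.0 and 42.9 RPKM lay between the knockdowns. Mup genes are near-identical copies, and the assignment of reads among them is uncertain.

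Ttr, encoding the thyroxine and retinol carrier transthyretin, was at 27.6 and 30.4 RPKM with Glis3 shRNA and at 10.3 and 12.1 RPKM with CD133 shRNA (difference 1.30, adjusted p = 0.00474). Its control values of 21.7 and 19.6 RPKM again fell between the knockdowns. Serpinb9, an intracellular inhibitor of granzyme B, was at 69.7 and 70.6 against 31.2 and 37.0 RPKM (difference 1.03, adjusted p = 0.00617), with controls at 61.0 and 56.8 RPKM. Rhoj, a small GTPase of the Cdc42 family, was at 10.3 RPKM in both Glis3 shRNA libraries against 4.94 and 5.82 RPKM (difference 0.83, adjusted p = 0.00852), with controls at 5.99 and 5.84 RPKM. The control values of Serpinb9 thus lay close to Glis3 shRNA, and those of Rhoj close to CD133 shRNA.

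Several of the higher genes were at low levels. Cytip, which binds cytohesin exchange factors, was at 3.16 and 5.03 RPKM with Glis3 shRNA and at 0.38 and 0.47 RPKM with CD133 shRNA, with controls at 0.68 and 0.49 RPKM (difference 1.81, adjusted p = 0.00874). Fgf9, a secreted fibroblast growth factor, was at 2.44 and 3.28 against 0.70 and 0.77 RPKM, with controls at 1.59 and 1.37 RPKM (difference 1.15, adjusted p = 0.0111). Atoh8, a basic helix-loop-helix factor, was at 3.66 and 4.83 against 1.02 and 1.27 RPKM, and Nrn1, encoding neuritin, at 4.10 and 4.59 against 1.91 and 1.99 RPKM. Controls were at 1.15 and 1.11 RPKM for Atoh8 and at 0.87 and 0.83 RPKM for Nrn1. On the log2(RPKM + 1) scale the differences of Atoh8 (1.28) and Nrn1 (0.86) understate the change in RPKM.

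S1pr1, the sphingosine 1-phosphate receptor, was at 7.07 and 5.33 RPKM with Glis3 shRNA and at 1.35 and 2.49 RPKM with CD133 shRNA (difference 1.32, adjusted p = 0.0229). Its controls were at 5.53 and 5.02 RPKM. Tmtc1, an O-mannosyltransferase, had a difference of 1.22, and Lims2, an adaptor of integrin adhesions, one of 1.19. The control libraries lay at or near the Glis3 shRNA level for S1pr1 and Lims2, and between the knockdowns for Tmtc1. Car8, a carbonic anhydrase relative without catalytic activity, was at 29.8 and 26.5 against 9.75 and 14.8 RPKM (difference 1.16, adjusted p = 0.022), with controls at 11.8 and 12.2 RPKM. Fmo2, a flavin monooxygenase, had a difference of 1.92, Sdpr (now named Cavin2), a coat protein of caveolae, one of 1.52, and Stbd1, a glycogen-binding protein, one of 0.89. Within the Glis3 shRNA group Fmo2 and Sdpr were uneven, at 5.85 and 9.74 RPKM for Fmo2 and at 8.12 and 14.7 RPKM for Sdpr. With the 4 knockdown libraries alone 10 of these 20 genes passed: Prom1, Mup20, Cdo1, Cytip, Ttr, Atoh8, Fgf9, Serpinb9, Nrn1 and Rhoj.

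The 20 named genes with the largest negative differences ran from Reg1 at -2.40 to Ush1g at -1.08 and included 3 Reg lectin genes. Tns1, tensin 1, which links integrins to actin, was at 3.49 and 2.70 RPKM with Glis3 shRNA and at 11.7 and 15.6 RPKM with CD133 shRNA. Control libraries at 14.03 and 11.9 RPKM lay at the CD133 shRNA level. The difference was -1.83 (SE 0.153, adjusted p = 0.00617). Gxylt2, a xylosyltransferase that extends O-glucose on the EGF repeats of Notch, was at 1.97 and 1.96 against 7.88 and 10.3 RPKM, with controls at 6.29 and 5.50 RPKM (difference -1.76, adjusted p = 0.00474). In Gxylt2 the Glis3 shRNA libraries were the low pair and the CD133 shRNA libraries lay above both controls.

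Otop3, an otopetrin proton channel (chr11:115334731-115346927, plus strand), was at 2.85 and 3.01 RPKM with Glis3 shRNA and at 8.19 and 7.48 RPKM with CD133 shRNA (difference -1.17, adjusted p = 0.0041). Ush1g, a scaffold protein of hair-cell stereocilia encoded nearby (chr11:115315192-115322041, minus strand), was at 1.49 and 1.65 against 4.87 and 4.00 RPKM (difference -1.08, adjusted p = 0.00836). Controls were at 6.12 and 5.89 RPKM for Otop3 and at 3.58 and 3.34 RPKM for Ush1g. Both genes showed the same order of groups: Glis3 shRNA lowest, control between, CD133 shRNA highest. Ush1g could not be fitted with a minimum mean of 5 RPKM.

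Piezo2, a mechanically gated ion channel, had a difference of -1.34, Pcp4l1, a small relative of a calmodulin regulator, one of -1.23, and Cxcl17, a mucosal chemokine, one of -1.53. Ch25h, which makes 25-hydroxycholesterol, was at 5.64 and 5.10 against 15.0 and 26.7 RPKM (difference -1.73, adjusted p = 0.0174), and both controls, at 36.9 and 36.8 RPKM, exceeded both knockdowns. The CD133 shRNA libraries of Ch25h were far apart, and its call was lost with the 4 knockdown libraries alone (adjusted p = 0.0667).

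A smaller set differed mainly through high values with CD133 shRNA. Ctla2a, a cysteine protease inhibitor of the cathepsin propeptide type, was at 3.53 and 2.38 RPKM with Glis3 shRNA and at 16.7 and 10.8 RPKM with CD133 shRNA, with controls at 2.23 and 2.74 RPKM (difference -1.89, adjusted p = 0.0142). Krt6a, a keratin of activated epithelia, was at 1.43 and 2.10 against 7.52 and 5.76 RPKM, with controls at 2.25 and 2.34 RPKM (difference -1.47, adjusted p = 0.00915). C4bp, a complement inhibitor, was at 3.61 and 2.83 against 11.3 and 6.77 RPKM, with controls at 1.05 and 1.71 RPKM (difference -1.22, adjusted p = 0.0437). In all 3 the CD133 shRNA libraries were the high pair. With the 4 knockdown libraries alone none of the 3 passed (adjusted p = 0.0555, 0.0505 and 0.087), and 7 of the 20 lower genes did, among them Tns1, Ccl2, Gxylt2, Wnt10a, Otop3 and Ush1g.

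**Figure D4:**
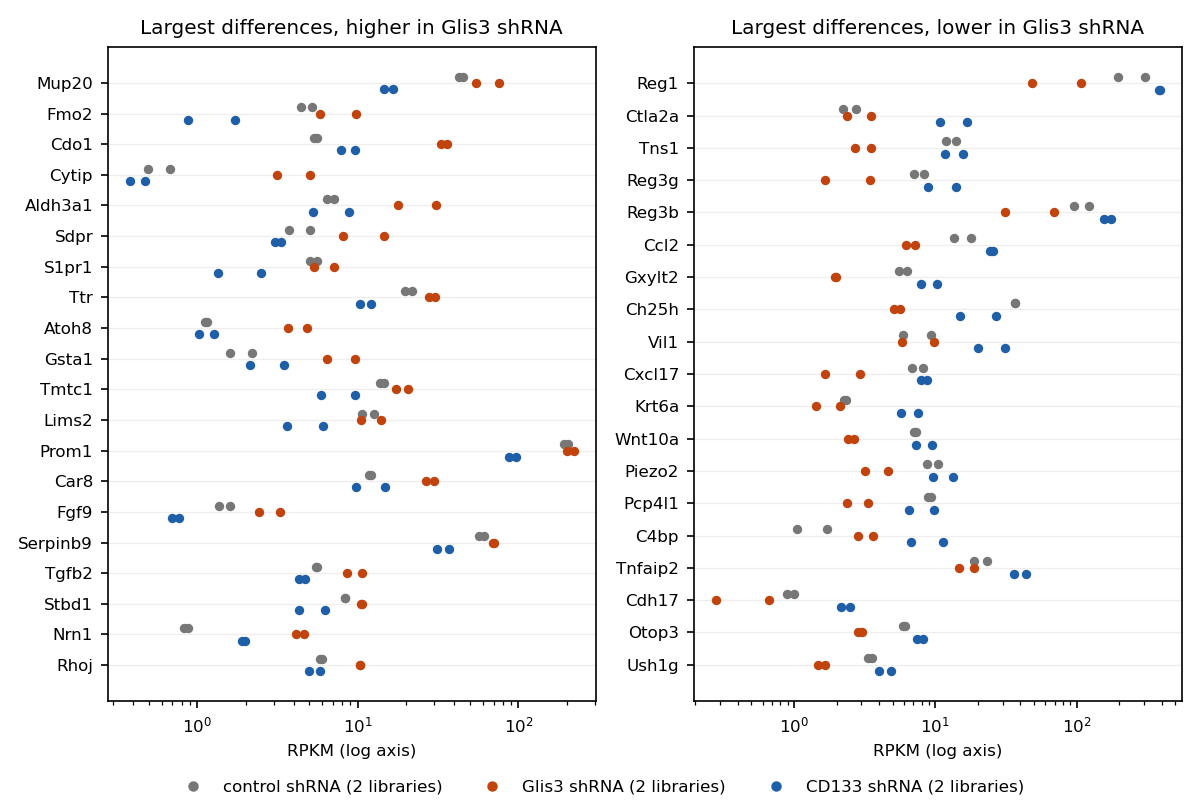
RPKM on a log axis in each of the 6 libraries for the largest positive and negative differences among called genes that are reported here; each point is 1 library, coloured by group. The Glis3 shRNA and CD133 shRNA pairs do not overlap in any of these genes, while control points lie near one knockdown, between them or beyond both, as for Ch25h at 36.9 and 36.8 RPKM.

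Of 8 Wnt ligand genes tested, 0 were higher and 2 lower in Glis3 shRNA colonies (25.0% called, where 2.46% of all genes were lower), and the list median was -0.38 against 0.002 for all genes. Wnt10a (chr1:74791516-74804179, plus strand) was at 2.65 and 2.43 RPKM with Glis3 shRNA and at 9.55 and 7.28 RPKM with CD133 shRNA. Control libraries were at 7.28 and 7.11 RPKM, so the Glis3 shRNA pair was low. The difference was -1.40 (SE 0.114, adjusted p = 0.00617), which is 3.31-fold in the mean RPKM. Wnt7b, the most abundant ligand, was at 68.1 and 64.3 against 90.6 and 83.9 RPKM, with controls at 78.1 and 82.8 RPKM (difference -0.39, adjusted p = 0.031). For Wnt7b the CD133 shRNA libraries exceeded both controls and the Glis3 shRNA libraries lay under both.

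The other ligands did not pass. Wnt7a was at 17.97 and 13.01 RPKM with Glis3 shRNA and at 23.4 and 25.0 RPKM with CD133 shRNA (difference -0.63, adjusted p = 0.0568). Wnt5b pointed the other way, at 16.9 and 18.9 against 7.27 and 12.3 RPKM (difference 0.85, adjusted p = 0.0791). The differences of Wnt4, Wnt16, Wnt9a and Wnt5a were -0.38, -0.57, 0.23 and 0.11. The Wnt10a call held in all settings, while that of Wnt7b was lost with the 4 knockdown libraries alone (adjusted p = 0.0702). Without Glis3 shRNA library 1, 4 ligands passed as lower, and without each other single library 1 did, with 1 also higher without CD133 shRNA library 3.

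None of 22 Wnt receptors and secreted regulators passed (median 0.01), with the co-receptor Lrp5 (-0.27, adjusted p = 0.0704) and the receptor Fzd4 (0.43, adjusted p = 0.0959) having the smallest p. None of 25 intracellular components passed (median -0.03). Ctnnb1, encoding beta-catenin, was at 499 and 435 RPKM with Glis3 shRNA and at 573 and 557 RPKM with CD133 shRNA, with controls at 586 and 613 RPKM (difference -0.28, 95% interval -0.48 to -0.08, adjusted p = 0.123). Of 15 target and feedback genes 1 was lower (6.67%, where 2.46% of all genes were lower). It was the transcription factor gene Sox9 (-0.30, adjusted p = 0.0419), and its call was lost in each fit that left out 1 library. Axin2, a feedback inhibitor and usual reporter of the pathway, was at 26.8 and 25.8 against 33.7 and 25.9 RPKM (difference -0.16, adjusted p = 0.473), and the RSPO receptor gene Lgr5 at 7.43 and 9.38 against 8.36 and 7.09 RPKM (difference 0.10, adjusted p = 0.652). The pairs overlapped for both Axin2 and Lgr5.

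The Reg genes, which encode secreted C-type lectins of pancreas and gut that rise with injury and bind bacteria, stood among the largest negative differences. Reg1 was at 108 and 48.6 RPKM with Glis3 shRNA and at 388 and 382 RPKM with CD133 shRNA. Controls were at 197 and 304 RPKM, between the knockdowns. The difference was -2.40 (SE 0.358, adjusted p = 0.0229). Reg3b was at 68.7 and 31.0 against 156 and 177 RPKM, with controls at 95.3 and 123 RPKM (difference -1.82, SE 0.329, adjusted p = 0.0396). Reg3g was at 3.45 and 1.66 against 8.89 and 14.02 RPKM, with controls at 7.04 and 8.31 RPKM (difference -1.82, SE 0.273, adjusted p = 0.0229). In each of the 3 genes Glis3 shRNA library 3 was the lowest of all 6 libraries and library 1 the next lowest. These genes are close paralogs, among which reads can be hard to assign.

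The 3 Reg genes share a cluster on chromosome 6, and because they moved together the 120 bases before each RefSeq start (GRCm38.p6, 5′ to 3′ on the strand of the gene) are shown. Capitals mark TATAAA, the core of a TATA box, a motif searched after the values were seen.
Reg1, chr6:78425863-78425982, plus strand: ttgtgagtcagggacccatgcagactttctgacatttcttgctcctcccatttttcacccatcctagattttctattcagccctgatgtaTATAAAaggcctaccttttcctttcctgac
Reg3b, chr6:78370765-78370884, plus strand: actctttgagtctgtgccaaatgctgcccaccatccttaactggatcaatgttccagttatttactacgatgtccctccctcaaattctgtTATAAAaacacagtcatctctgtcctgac
Reg3g, chr6:78468875-78468994, minus strand: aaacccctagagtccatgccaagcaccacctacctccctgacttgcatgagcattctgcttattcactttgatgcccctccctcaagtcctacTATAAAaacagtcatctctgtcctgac
TATAAA begins 30, 29 and 27 bases before the start in Reg1, Reg3b and Reg3g. Of 10880 promoter windows of tested genes, 108 (0.993%) hold TATAAA on the strand of the gene with its first base 40 to 26 bases before the start, and 735 (6.76%) hold it anywhere on either strand. The match is a description of these letters.

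Of 18 tested genes of mucosal defence, the Reg lectins included, 0 were higher and 4 lower (22.2% called, where 2.46% of all genes were lower; median -0.63). The fourth was Chil1, a chitinase-like lectin, at 2.73 and 2.08 against 4.37 and 6.67 RPKM (difference -0.92, adjusted p = 0.0442), with controls above all of them at 8.72 and 10.03 RPKM. Lcn2, encoding the siderophore-binding lipocalin 2, did not pass, at 375 and 226 against 395 and 548 RPKM (difference -0.67, adjusted p = 0.181). The count of 4 was 8 without Glis3 shRNA library 1, 4 without Glis3 shRNA library 3, 1 without CD133 shRNA library 1, and 0 without CD133 shRNA library 3, without either control library and with the 4 knockdown libraries alone. The median was negative in all of these, between -0.76 and -0.41.

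Among 36 NF-kB targets, chemokines and cytokines, 2 were higher and 3 lower (13.9% called against 4.06% of all genes, median -0.19). Ccl2, the chemokine that attracts monocytes, was at 7.18 and 6.20 RPKM with Glis3 shRNA and at 24.3 and 25.8 RPKM with CD133 shRNA, with controls between at 13.5 and 17.8 RPKM. Its difference of -1.76 (SE 0.126, adjusted p = 0.00474) held in all settings. Tnfaip2, a TNF-induced protein of membrane nanotubes, was at 18.9 and 14.8 against 44.2 and 36.3 RPKM (difference -1.21, adjusted p = 0.0166), with controls at 18.8 and 23.2 RPKM. Icam1, the leukocyte adhesion molecule, was at 6.91 and 6.08 against 10.8 and 15.1 RPKM (difference -0.88, adjusted p = 0.0345), with controls at 16.1 and 14.1 RPKM. The control libraries thus lay near Glis3 shRNA for Tnfaip2 and near CD133 shRNA for Icam1.

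The higher members were Il1a, the alarmin interleukin 1 alpha, at 2.14 and 3.24 against 0.94 and 1.20 RPKM (difference 0.82, adjusted p = 0.0467), and Cxcl12, the ligand of CXCR4, at 1.01 and 1.34 against 0.26 and 0.41 RPKM (difference 0.70, adjusted p = 0.0416). The neutrophil chemokine genes Cxcl1 (-0.69, adjusted p = 0.0697) and Cxcl5 (-0.71, adjusted p = 0.106) did not pass. Lower calls in this list numbered 11 without Glis3 shRNA library 1, 2 without Glis3 shRNA library 3 or either CD133 shRNA library, and 1 without either control library. Higher calls were 2 without Glis3 shRNA library 1 and 0 without each other library.

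Of 23 genes of the interferon response and antigen presentation, 0 were higher and 3 lower (13.0% called, where 2.46% of all genes were lower). The 3 were Bst2 (tetherin, which holds virions at the membrane, -0.43), Irf1 (an interferon-induced transcription factor, -0.41) and Gbp2 (a guanylate-binding protein, -0.53). These calls had adjusted p values of 0.0165, 0.0316 and 0.0422, and none was made with the 4 knockdown libraries alone. Of 13 liver-type plasma protein genes only Ttr passed, as higher (7.69% called against 4.06% of all genes). However, 12 of the 13 differences were negative (median -0.31). The median without CD133 shRNA library 3 was -0.03 and without CD133 shRNA library 1 was -0.59.

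Genes of the extracellular matrix and of its receptors formed the longest run of calls in 1 direction among the lists. Of 36 tested, 0 were higher and 9 lower in Glis3 shRNA colonies (25.0% called, where 2.46% of all genes were lower; median -0.21). Of 24 mesenchymal and stellate markers, 3 were in the table, and the 2 tested were Fn1, which is on both lists, and Gsn, gelsolin, at 10.2 and 7.94 against 19.2 and 13.5 RPKM (difference -0.78, adjusted p = 0.0653). Summed, the markers in the table stood at 64.3 and 64.6 RPKM with Glis3 shRNA, at 105 and 102 RPKM with CD133 shRNA and at 124 and 125 RPKM in controls. Most of each sum was Fn1, and the part of these markers in the matrix calls was not tested. Fn1, fibronectin, was at 53.5 and 56.3 RPKM with Glis3 shRNA and at 84.7 and 87.8 RPKM with CD133 shRNA. Controls lay above both, at 112 RPKM in each library. The difference was -0.64 (SE 0.0537, adjusted p = 0.00617), and it passed with the 4 knockdown libraries alone (adjusted p = 0.0372). Lama4, a laminin alpha chain, was at 2.90 and 2.63 against 5.30 and 6.61 RPKM (difference -0.88, adjusted p = 0.0142), with controls at 5.01 and 4.58 RPKM. Lama3, the alpha chain of epithelial laminin, was at 9.72 and 8.68 against 20.1 and 14.5 RPKM (difference -0.83, adjusted p = 0.0471), with controls at 8.30 and 10.6 RPKM.

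Col18a1, the basement membrane collagen that yields endostatin, was at 24.6 and 20.6 against 43.5 and 33.9 RPKM, with controls at 20.8 and 25.0 RPKM (difference -0.75, adjusted p = 0.0445). For Lama3 and Col18a1 the controls lay at the Glis3 shRNA level. Col16a1, a fibril-associated collagen, had a difference of -0.82, Gpc1, a glypican, one of -0.55, and Agrn, agrin, one of -0.35. Of the receptors, Itga5, the fibronectin receptor alpha chain, had a difference of -0.44 (adjusted p = 0.0234) and Itgb1, the common beta chain, one of -0.29 (adjusted p = 0.0389), at 179 and 181 against 219 and 223 RPKM. Lower matrix calls numbered 9 without Glis3 shRNA library 1, 2 without Glis3 shRNA library 3, 4 without CD133 shRNA library 3, and 1 without CD133 shRNA library 1, without either control library or with the 4 knockdown libraries alone.

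Of 29 matrix proteases and protease inhibitors, 3 were higher and 4 lower (24.1% called against 4.06% of all genes, median -0.27). Mmp13, a collagenase, was at 0.30 and 0.14 RPKM with Glis3 shRNA and at 1.44 and 1.52 RPKM with CD133 shRNA, both under the controls at 4.50 and 4.23 RPKM (difference -1.03, adjusted p = 0.00852). Serpine2, an inhibitor of thrombin and plasminogen activators, was at 5.11 and 3.93 against 7.83 and 8.13 RPKM (difference -0.71, adjusted p = 0.0229). Plaur, the urokinase receptor gene, was also lower (-0.46, adjusted p = 0.0417). Serpinb6b, an intracellular serpin, was higher at 97.9 and 88.3 against 52.5 and 54.2 RPKM (difference 0.79, adjusted p = 0.0142). The secreted serine protease gene Htra1 (0.57, adjusted p = 0.0173) and the membrane metalloprotease gene Mmp15 (0.44, adjusted p = 0.0416) were the other higher members. The Serpinb genes are a family of close paralogs.

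Vil1, villin, the actin bundler of microvilli, was at 9.87 and 5.81 RPKM with Glis3 shRNA and at 31.0 and 20.1 RPKM with CD133 shRNA (difference -1.59, SE 0.298, adjusted p = 0.0417). Controls were at 5.92 and 9.33 RPKM, the level of Glis3 shRNA, and the exons of Vil1 overlap those of Usp37 on the opposite strand. Cdh17, the liver-intestine cadherin, was at 0.67 and 0.28 against 2.51 and 2.15 RPKM, with controls at 0.89 and 1.00 RPKM (difference -1.19, adjusted p = 0.0147). Among 24 genes of microvilli and prominin partners, Prom1 was higher, Vil1 lower and 22 did not pass (8.33% called against 4.06% of all genes). Prom1 is the target of the CD133 shRNA pool, so its call follows from the design, and Vil1 was the only other call. Pls1, plastin 1, another bundler of microvillar actin, was among those that did not pass (-0.57, adjusted p = 0.0508). Of 13 keratins 2 were lower (15.4%, where 2.46% of all genes were lower), Krt6a and its partner Krt16 (-0.76, adjusted p = 0.0314).

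Of 42 junction genes 2 were lower, among them Cldn6, a share of 4.76% that is near the 4.06% of all genes. Cldn6, an embryonic claudin, was at 19.8 and 19.5 against 33.3 and 30.1 RPKM (difference -0.66, adjusted p = 0.00874), with controls at 21.9 and 21 RPKM. Vil1, Cdh17, Krt6a and Krt16 lost their calls with the 4 knockdown libraries alone, and Cldn6 kept its call there (adjusted p = 0.0467).

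Genes of glutathione, xenobiotic and antioxidant metabolism gave 7 higher and 1 lower of 54 tested (14.8% called against 4.06% of all genes, median 0.14). Nfe2l2, encoding NRF2, the transcription factor of the antioxidant response, was at 224 and 236 RPKM with Glis3 shRNA and at 163 and 169 RPKM with CD133 shRNA. The controls, at 178 and 173 RPKM, lay nearer CD133 shRNA. The difference was 0.47 (SE 0.0587, adjusted p = 0.0171). The glutathione transferase gene Gstm1 was at 106 and 96.0 against 62.2 and 71.3 RPKM (difference 0.59, adjusted p = 0.0229), with controls at 72.1 and 78.1 RPKM. Gstm2 had a difference of 0.71 and Gsta1 one of 1.25, and reads of Gstm and Gsta paralogs can be hard to tell apart.

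Por, the electron donor of microsomal cytochromes P450, had a difference of 0.31 and the aldo-keto reductase gene Akr1c19 one of 0.34, and Cdo1 completed the higher members. The lower one was Cyp1b1, a P450 of the aryl hydrocarbon response, at 153 and 156 against 199 and 184 RPKM (difference -0.30, adjusted p = 0.0473). Nqo1, a usual NRF2 target, was at 14.9 and 16.2 against 11.97 and 8.72 RPKM without passing (0.56, adjusted p = 0.0807). Gclc (0.16), Gclm (0.20) and Hmox1 (0.25), also targets, did not pass. These genes were chosen for their role and do not stand for all NRF2 targets, which were not tested as a set. Higher calls numbered 10 without Glis3 shRNA library 1, 3 without Glis3 shRNA library 3 or CD133 shRNA library 3, and 1, Cdo1, without CD133 shRNA library 1, without either control library and with the 4 knockdown libraries alone.

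Ftl1, the ferritin light chain that stores iron, was at 1167 and 1173 RPKM with Glis3 shRNA and at 732 and 601 RPKM with CD133 shRNA, with controls between at 925 and 1045 RPKM. The difference was 0.82 (SE 0.113, adjusted p = 0.0206). The heavy chain gene Fth1 was at 904 and 848 against 824 and 871 RPKM, where the pairs overlapped (difference 0.05, adjusted p = 0.787). In the iron list 2 of 25 genes were called (8.0% against 4.06% of all genes), and the other was Steap2, a metalloreductase, as lower (-0.51). Of 26 genes of aldehyde and retinoid metabolism 4 were higher and 1 lower (19.2% called against 4.06% of all genes). The list median was -0.05, with 10 differences positive and 16 negative, so the list as a whole was not raised. Aldh3a1, which oxidizes aromatic and lipid aldehydes, was at 17.7 and 30.8 against 8.85 and 5.26 RPKM (difference 1.63, adjusted p = 0.0357), with controls at 7.06 and 6.40 RPKM, and the Glis3 shRNA pair was uneven.

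The retinoic acid receptor gene Rarb (0.79), the retinal reductase gene Rdh11 (0.37) and Aldh6a1, of valine breakdown (0.28), were higher. Of 25 cholesterol synthesis genes 1 passed (4.00%, near the share of all genes), Acat2, an acetyl-CoA acetyltransferase (0.38, adjusted p = 0.0229), and the list median was 0.04. Of 20 fatty acid synthesis genes 2 were higher, the acetyl-CoA carboxylase activator Mid1ip1 (0.36) and the acetyl-CoA synthetase gene Acss2 (0.46). That share is above the 1.61% of all genes that were higher, and the list median was 0.04. None of the iron, retinoid and lipid calls held with the 4 knockdown libraries alone.

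In the TGF-beta, activin and BMP list of 40 genes, 2 were higher and 4 lower (15.0% called against 4.06% of all genes, median -0.05), and the ligands split. Tgfb2 was at 8.59 and 10.7 RPKM with Glis3 shRNA and at 4.32 and 4.66 RPKM with CD133 shRNA, with controls at 5.47 and 5.55 RPKM (difference 0.95, adjusted p = 0.0103). Tgfb1 was at 3.84 and 2.82 against 7.27 and 7.18 RPKM, with controls at 5.04 and 5.47 RPKM (difference -0.94, adjusted p = 0.0156). Tgfb3, the most abundant of the 3, was at 71.2 and 63.6 against 90.3 and 89.8 RPKM, with controls at 72.4 and 79.2 RPKM (difference -0.41, adjusted p = 0.0381). Glis3 shRNA was thus the high group for Tgfb2. For Tgfb1 and Tgfb3 it was the lowest group and CD133 shRNA the highest, with controls between. Id3, a helix-loop-helix inhibitor induced by BMPs, was also higher (0.45, adjusted p = 0.0374). With the 4 knockdown libraries alone 0 members passed.

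Of 29 Hippo and Yap genes 1 was higher and 3 lower (13.8% called against 4.06% of all genes). The list median was 0.06, with 18 differences positive and 11 negative. The scaffold gene Amot (-0.50, adjusted p = 0.0215) and the Yap target Ankrd1 (-0.63, adjusted p = 0.0346) were lower. So was the DNA-binding partner gene Tead4 (-0.32, adjusted p = 0.0387), and Tgfb2, a member here too, was higher. Of 28 Notch genes 1 was lower, Nrarp, a Notch-induced feedback inhibitor (-0.54, adjusted p = 0.0227), a share of 3.57% that is near the 4.06% of all genes. No gene of the primary cilium and Hedgehog list passed among 51 tested (median -0.04), with the Hedgehog co-receptor gene Gas1 (-0.62, adjusted p = 0.0669) and the ciliary kinesin gene Kif7 (0.42, adjusted p = 0.0667) having the smallest p.

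Genes of motile cilia gave 3 lower and 0 higher of 12 tested (25.0% called, where 2.46% of all genes were lower; median -0.34). Foxj1, the master transcription factor of motile cilia, was at 23.8 and 17.5 RPKM with Glis3 shRNA and at 39.5 and 48.5 RPKM with CD133 shRNA, and the controls lay above both knockdowns at 64.8 and 58.1 RPKM. The difference was -1.07 (SE 0.153, adjusted p = 0.0222). Cfap126, an axonemal protein controlled by Foxj1, was at 3.90 and 3.03 against 6.63 and 7.28 RPKM (difference -0.84, adjusted p = 0.0171), and the radial spoke gene Rsph1 at 2.51 and 1.84 against 4.07 and 4.43 RPKM (difference -0.73, adjusted p = 0.0385). Their controls were at 10.4 and 9.48 RPKM for Cfap126 and at 5.11 and 4.06 RPKM for Rsph1. The calls numbered 4 without Glis3 shRNA library 1, 2 without Glis3 shRNA library 3 and 0 without each other single library or with the 4 knockdown libraries alone. Of 52 genes on the list, 15 were in the table.

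Of 32 duct markers 1 was higher and 4 lower (15.6% called against 4.06% of all genes, median -0.11). Slc4a4, the bicarbonate importer of the duct, was at 51.1 RPKM in both Glis3 shRNA libraries and at 72.2 and 72.1 RPKM with CD133 shRNA, with controls at 70.9 and 64.0 RPKM (difference -0.49, adjusted p = 0.0173). Car2, carbonic anhydrase 2, was at 200 and 168 against 303 and 269 RPKM, with controls at 137 and 164 RPKM (difference -0.64, adjusted p = 0.0417). Kcnn4, a calcium-activated potassium channel, had a difference of -0.55. The water channel gene Aqp5 was higher, at 14.8 and 16.0 against 7.75 and 9.26 RPKM, with controls at 16.3 and 12.04 RPKM (difference 0.79, adjusted p = 0.038).

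Of 24 progenitor factors 4 were called (16.7% against 4.06% of all genes), a share that counts both shRNA targets, whose calls follow from the design. The higher call was Prom1, and the lower ones were Glis3, Sox9 and Hnf4a, a nuclear receptor of endoderm, at 30.8 and 30.6 against 38.0 and 36.5 RPKM (difference -0.27, adjusted p = 0.0442). Sox9, a duct and progenitor transcription factor, was at 35.8 and 34.7 against 43.2 and 43.8 RPKM, with controls at 33.7 and 31.4 RPKM. The pancreatic master factor gene Pdx1 was at 13.3 and 12.9 against 12.4 and 12.2 RPKM (difference 0.09, adjusted p = 0.419). The keratin genes Krt19 (-0.22) and Krt8 (-0.41) and the epithelial marker Epcam (-0.20) did not pass. Of the duct and progenitor calls Glis3, Prom1 and Slc4a4 held with the 4 knockdown libraries alone.

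Of 36 endocrine markers 14 were in the table and 8 were tested. Of these, 0 were higher and 2 lower (25.0% called, where 2.46% of all genes were lower). Among the lower was the prohormone-processing gene Cpe, at 33.9 and 32.5 against 46.3 and 42.6 RPKM. The hormone genes pointed the other way without passing. Sst, somatostatin, was at 8.15 and 4.22 RPKM with Glis3 shRNA and at 1.43 and 0.55 RPKM with CD133 shRNA, with controls at 2.56 and 5.89 RPKM (difference 1.83, adjusted p = 0.0557). Gcg, glucagon, had a difference of 1.19 (adjusted p = 0.161) and Ghrl, ghrelin, one of 1.22 (adjusted p = 0.188), and for each hormone Glis3 shRNA library 1 was the highest of the 6 libraries.

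Of the tested markers of other cells, the acinar list gave Reg1 as lower and Nr5a2, a nuclear receptor also used by duct and progenitor cells, as higher (0.59, adjusted p = 0.0473). Cd68, a macrophage gene, was at 6.33 and 5.73 against 6.39 and 5.12 RPKM, where the pairs overlapped. Tfrc, which encodes the CD71 used in the sort, was at 41.2 and 48.6 against 37.8 and 42.2 RPKM (difference 0.16, adjusted p = 0.358). Of 6 Schwann and neural markers 2 were called (33.3% against 4.06% of all genes). Ncam1, an adhesion molecule, was lower (-0.86) and Cryab, a small heat shock protein, higher (0.42). Of 10 gastric and mucous markers Vil1 was the only call, and the trefoil gene Tff1 was at 0.31 and 6.76 RPKM with Glis3 shRNA and at 0.08 RPKM in both CD133 shRNA libraries, a value of 1 library that did not pass (adjusted p = 0.259).

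Cell division genes did not separate the knockdowns by single-gene tests. Of 49 mitosis genes none passed, although 46 differences were positive (median 0.23), and of 48 DNA replication genes none passed, with 46 positive (median 0.16). Melk, a mitotic kinase, was at 8.66 and 10.9 RPKM with Glis3 shRNA and at 6.99 and 6.62 RPKM with CD133 shRNA, with controls at 3.81 and 4.78 RPKM (difference 0.46, adjusted p = 0.0955). Mki67, the proliferation antigen, was at 23.6 and 39.8 against 25.3 and 20.04 RPKM, with controls at 16.6 and 14.2 RPKM, so the knockdown pairs overlapped (difference 0.43, adjusted p = 0.326). Glis3 shRNA library 3 carried much of this. Without it the medians of the mitosis and replication lists were 0.08 and 0.06 and no member passed, and without Glis3 shRNA library 1 the medians were 0.39 and 0.27 and 17 and 6 members passed as higher.

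Genes of protein synthesis, protein turnover and mitochondria gave no call. Of 80 cytosolic ribosomal protein genes 78 had positive differences, with a median of 0.18 and none past the threshold. Rpl7a was at 439 and 442 against 347 and 370 RPKM, with controls at 448 and 481 RPKM (difference 0.30, adjusted p = 0.0698). The medians of 77 mitochondrial ribosomal, 75 oxidative phosphorylation, 36 proteasome and 18 tRNA synthetase genes were 0.02, 0.05, 0.04 and 0.04. Of 34 glycolysis and hypoxia genes 1 was lower (2.94%, under the share of all genes), the collagen prolyl hydroxylase gene P4ha2 (-0.32, adjusted p = 0.0481), and none of 30 p53 targets passed (median 0.02).

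Of 30 immediate early and stress genes 25 had positive differences, with a list median of 0.22. In this list 2 were higher (6.67%, where 1.61% of all genes were higher). These were the ERK phosphatase gene Dusp5 at 22.8 and 20.01 against 12.4 and 13.8 RPKM (difference 0.67, adjusted p = 0.0374) and the zinc-finger gene Klf6 (0.45, adjusted p = 0.0417). Controls of Dusp5 were at 25.7 and 20.5 RPKM. Atf3, a stress-induced transcription factor, was at 57.4 and 57.7 against 23.6 and 28.1 RPKM without passing (difference 1.13, adjusted p = 0.0588), and it passed with the 4 knockdown libraries alone (adjusted p = 0.0341). Its control libraries were apart, at 60.0 and 32.6 RPKM. Of 30 genes of the unfolded protein response 1 was higher, the eIF2-alpha phosphatase subunit Ppp1r15a (0.50, adjusted p = 0.0173). That share of 3.33% is near the 4.06% called among all genes.

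Of 24 amino acid response genes 2 were lower (8.33% called against 4.06% of all genes), the mTORC1 inhibitor gene Ddit4 (-0.39) and the stress-induced chromatin gene Nupr1 (-0.64). The median of that list was 0.09, with 18 differences positive and 6 negative. Of 31 apoptosis regulators 2 were higher (6.45% called against 4.06% of all genes), and the list median was 0.03, with 18 differences positive and 13 negative. The higher ones were the caspase inhibitor gene Xiap (0.39, adjusted p = 0.0327) and Bcl2l1, encoding the death inhibitor BCL-XL (0.31, adjusted p = 0.038). Neither held with the 4 knockdown libraries alone. In all, the lists held 1195 tested genes, of which 87 were called, and 353 of the 440 called genes were on no list.

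**Figure D5:**
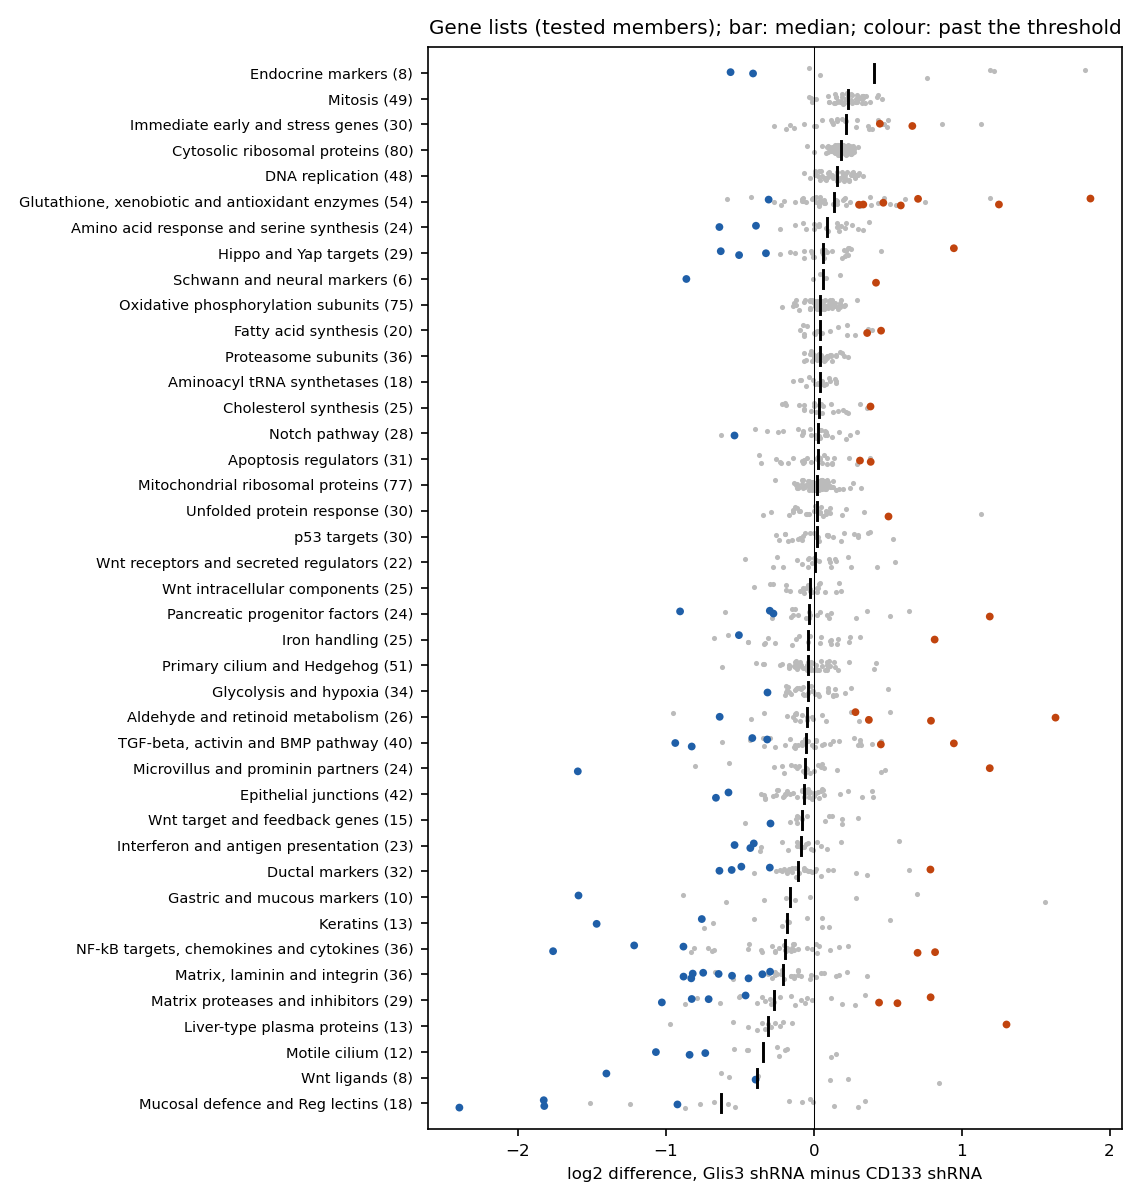
Log2 difference, Glis3 shRNA minus CD133 shRNA, for every tested member of each gene list (number tested in brackets); each point is a gene, coloured where it passed the threshold, with the list median marked. The medians of the mucosal defence list (-0.63) and of the Wnt ligands (-0.38) lie below 0, and those of the mitosis (0.23) and cytosolic ribosomal (0.18) lists above it.

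GLIS-family factors bind G-rich sites related to those of the GLI factors, and promoters were searched on both strands for TGGGGGGT, a core of the GLIS-type site, and for TGGGTGGTC, a GLI-type site. RefSeq windows (GRCm38.p6) from 250 bases before to 50 after the start were found for 8545 of the 10829 tested genes. TGGGGGGT was in the windows of 141 of these genes (1.65%), of 9 of 187 called genes that were lower in Glis3 shRNA (4.81%) and of 3 of 130 that were higher (2.31%). Counts of 9 and 3 genes are small, and no test was made. It was in none of the windows of the 20 largest positive or negative differences, of which 11 and 12 genes had one. TGGGTGGTC was in 25 of 10880 windows of tested genes (0.23%) and in none of a called gene. Neither motif was in the windows of Glis3 and Prom1. Among the named genes whose windows are reported singly here, Nfe2l2, Serpine2 and Bcl2l1 held TGGGGGGT. The stretch around it is shown 5′ to 3′ on the strand of the gene with the motif, or its reverse complement, in capitals.
Nfe2l2, chr2:75704829-75704888, minus strand: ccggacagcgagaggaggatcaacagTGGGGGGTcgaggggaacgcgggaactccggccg
Serpine2, chr1:79858813-79858872, minus strand: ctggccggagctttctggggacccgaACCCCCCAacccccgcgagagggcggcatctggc
Bcl2l1, chr2:152830928-152830967, minus strand: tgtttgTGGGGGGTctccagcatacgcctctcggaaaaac
The first base of the motif lies 199, 181 and 244 bases before the start in Nfe2l2, Serpine2 and Bcl2l1, in the last of these in 1 of its 3 windows. Nfe2l2 and Bcl2l1 were higher and Serpine2 lower in Glis3 shRNA colonies. A match describes letters in these windows and is not a bound site.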

How the data were processed

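The authors deposited 1 table of RPKM values with 2 decimals for 11164 genes, whose lowest per-gene maximum was 1.00 RPKM, so genes under that level in every library are not analysed here. Per the submitters' processing notes, bcl2fastq 2.18.0.12, TopHat2, HTSeq and mm10 were used. Not given in the sources used here are the annotation, the library total behind RPKM and the use of strand. Group means of log2(RPKM + 1) over the 6 libraries were fitted with limma 3.58.1 in R 4.3.3 (empirical Bayes with variance trend, two-sided, Benjamini-Hochberg over 10829 genes, threshold 0.05). Standard errors and 95% intervals are limma's. The fit was tested on simulated data. Genes were named by rule: both targets, the 20 largest called differences per direction with separate pairs, excluding unnamed loci, and up to 4 called members per list, or the 2 with the smallest p where none passed. Some genes the rule picks are left unreported here, though counts include them. Other members with values given were chosen for their role. The contrast and lists were chosen with earlier results of these data known, so list counts are not independent evidence. Depth was estimated from value steps (60.0% to 64.8% of values whole within 0.15 read), and no reads were recovered. Coordinates are from GENCODE M21 and promoters from RefSeq. The alternatives were other pseudocounts (0.1 and 5), filters, scalings, no variance trend, 4 libraries alone, a replicate block and leaving out each library.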

Additional observations from a re-analysis of the deposited data

How the results depend on the processing

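With the 4 knockdown libraries alone, 58 genes passed in place of 440, 18 of the 41 genes that are targets or largest differences in place of 41, and 16 of the list members in place of 87. Leaving out 1 library gave 25 to 743 genes, 16 to 40 of the 41, and 9 to 151 list members. The highest totals of genes came without Glis3 shRNA library 1 and the lowest without CD133 shRNA library 1, where 21 of the 25 were among the 440. With a replicate block 79 genes, 28 of the 41 and 19 list members passed. The block rests on the numbers 1 and 3 in the titles alone. The deviations of same-numbered libraries correlated at 0.03 for Glis3 with CD133 shRNA. They correlated at -0.37 for control with Glis3 shRNA and at -0.43 for control with CD133 shRNA. Same-numbered libraries thus did not move together, and the numbers are not shown to pair them. What lies behind the negative values was not tested. Pseudocounts of 0.1 and 5, both filters, median centring, quantile normalization and no variance trend gave 322 to 482 genes. Of 97 called differences 39 shrank by more than 1.5 times with a pseudocount of 5, and none of 1775 gene values reversed. Fits that drop 1 library leave a lone library assumed to vary like the others. Where that lone library is a control, the spread comes from the 4 knockdown libraries, so those fits nearly repeat the fit on them alone. The cause of these shifts was not tested. With 2 libraries a group, the smallest called difference was 0.25 on the log2 scale, and smaller ones were not called at this precision.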
